A study of Homo sapiens with 8 samples.

Results

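The long intergenic and antisense noncoding RNAs described here are genes whose symbol begins with LINC and digits, or ends in -AS1, -AS2 or -IT1, and whose mean expression over the 8 libraries was at least 1 CPM, a count scaled to a common library size. The naming rule took 1342 of the 27696 genes in the count table, and 296 of them reached that level. They comprised 88 LINC genes, 193 with the ending -AS1, 13 with -AS2 and 2 with -IT1. GENCODE release 29 types 144 of them as antisense and 89 as lincRNA, and 7 as protein coding, among them MMP24-AS1 and LINC00094, so the name alone does not make each member a noncoding RNA. The level was the only measured value that the rule used. LINC01881 (1.00 CPM), RNF139-AS1 (1.01) and MELTF-AS1 (1.01) were the members nearest to the threshold, and DPH6-AS1 (0.997), LINC00595 (0.996) and LINC01786 (0.996) the genes just below it.

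Long intergenic noncoding RNAs are transcribed from genes of their own that lie between protein-coding genes, and antisense RNAs from the strand opposite to a named sense gene, often from a start close to that of the sense gene. Most are spliced and polyadenylated, as messenger RNAs are, but carry no long open reading frame, and they are typically less abundant than coding transcripts. Some act on chromatin or transcription at their own locus and others in trans, while for many no function is known.

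The study asked how medium from senescent fibroblasts alters normal fibroblasts. IMR90 cells, a normal human fibroblast strain from embryonic lung, were exposed for 3 days to conditioned medium from IMR90 ER:RAS cells, which are the same strain with a RAS oncogene fused to the oestrogen receptor that 4-hydroxytamoxifen (4-OHT) switches on to cause senescence. The medium was collected at day 0, 4, 7 or 10 of 4-OHT, and the recipient groups are called D0, D4, D7 and D10. The recipients themselves were IMR90 cells without the transgene, and all 4 groups received conditioned medium, so that D0 is a control for medium of cells not yet induced and not for fresh medium. Each group had 2 libraries, from 2 independent experiments, made from polyadenylated RNA. Libraries with the same replicate number are taken here as 1 experiment. All recipients were 1 cell strain, so the spread covers repeated experiments and not donors.

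The 8 libraries held between 11708193 and 13395912 counts, of which the 296 noncoding RNAs took between 0.249% and 0.301%. The highest share was in the D10 library of experiment 2, which was also the shallowest, and the share in the other 7 libraries was at most 0.269%. All 10 fibroblast markers were at 120 CPM or more in every library. Epithelial and leukocyte markers stayed at or below 0.950 CPM, and of the endothelial markers TEK ran from 40.4 to 120.5 CPM while VWF reached 2.37 and PECAM1, CDH5 and KDR stayed at or below 0.993. In bulk RNA, fewer cells of a type and less RNA per cell cannot be told apart. All 296 members passed the filter on low counts and were tested with 13798 genes in all, but 43 had fewer than 10 counts in at least 1 library, and LINC00484 had 0 counts in the D10 library of experiment 2.

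Promoters were taken for the noncoding RNAs that passed the test at D10 with the experiment as a block, since 0 members passed by group. RefSeq windows of 300 bases, from 250 before to 50 after the annotated start, were matched for 238 of the 296 members. OSTN-AS1 and SOCS2-AS1 have no entry in that table. The windows of the other 4 are given 5′ to 3′ on GRCh38.p14. Matches to TGANTCA, a search pattern for AP-1 sites in which N is any base, are in capitals:
GABPB1-AS1, chr15:50353924-50354223, plus strand: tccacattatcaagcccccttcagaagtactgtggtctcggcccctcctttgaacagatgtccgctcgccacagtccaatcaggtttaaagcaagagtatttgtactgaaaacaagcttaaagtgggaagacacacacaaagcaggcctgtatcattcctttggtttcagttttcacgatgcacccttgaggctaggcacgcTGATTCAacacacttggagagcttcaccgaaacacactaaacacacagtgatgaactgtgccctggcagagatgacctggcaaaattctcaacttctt
STXBP5-AS1, chr6:147204565-147204864, minus strand: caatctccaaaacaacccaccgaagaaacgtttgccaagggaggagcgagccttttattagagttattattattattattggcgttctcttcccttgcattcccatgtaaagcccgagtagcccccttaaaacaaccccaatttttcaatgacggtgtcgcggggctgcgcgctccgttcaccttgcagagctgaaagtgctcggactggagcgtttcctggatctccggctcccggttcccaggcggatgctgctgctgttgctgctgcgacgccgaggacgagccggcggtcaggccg
DLGAP1-AS1, chr18:3593864-3594163, plus strand: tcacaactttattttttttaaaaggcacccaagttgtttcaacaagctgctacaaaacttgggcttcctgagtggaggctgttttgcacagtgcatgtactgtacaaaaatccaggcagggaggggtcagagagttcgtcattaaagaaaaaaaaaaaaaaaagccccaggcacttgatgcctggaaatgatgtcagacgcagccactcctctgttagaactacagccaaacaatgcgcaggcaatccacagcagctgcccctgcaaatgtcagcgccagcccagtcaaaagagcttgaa
LINC00973, chr3:98914316-98914615, plus strand: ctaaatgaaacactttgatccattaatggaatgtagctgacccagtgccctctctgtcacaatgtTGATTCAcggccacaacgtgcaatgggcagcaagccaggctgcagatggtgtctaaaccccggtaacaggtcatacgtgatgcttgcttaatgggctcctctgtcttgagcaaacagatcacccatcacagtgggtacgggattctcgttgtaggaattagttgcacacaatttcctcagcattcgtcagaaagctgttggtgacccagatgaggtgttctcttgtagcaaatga

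GABPB1-AS1 and LINC00973 each held 1 match to TGANTCA. This pattern searches for the site of the AP-1 factors, which act downstream of growth and stress signals. It takes any base in the middle, so a match need not be a site that these factors bind. In both windows the match read TGATTCA, with T in the middle, and binding to it was not tested. The match began 48 bases before the start of GABPB1-AS1 and 185 bases before that of LINC00973. None of the 4 windows held the TATA box TATAAA or GGGANTTTC, the first letters of an NF-kappaB site, on either strand. These motifs do not contain one another. The RefSeq start lay 0 bases from the GENCODE 29 start for STXBP5-AS1, 382 for DLGAP1-AS1, 785 for GABPB1-AS1 and 66492 for LINC00973, so the last window is not next to the gene model on which its reads were placed. Over all 238 matched members, 6.72% of windows held TGANTCA, 7.56% TATAAA and 0.840% GGGANTTTC, against 7.76%, 11.95% and 1.30% of the 27305 windows in the table. The median GC content was 64.3% in the members and 58.3% in all windows. CpG dinucleotides, whose clusters mark many promoters of widely used genes, were set against the number given by base content. The median ratio was 0.786 in the members and 0.580 in all windows. By class it was 0.645 in 73 LINC members and 0.817 in 152 -AS1 members.

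Most of these RNAs were scarce. The median of their mean levels was 3.01 CPM, against 21.6 CPM over all genes tested, with 203 at 2 CPM or more, 98 at 5 or more and 57 at 10 or more. The 8 most abundant held 38.9% of all member counts. LRRC75A-AS1, a host gene of small nucleolar RNAs, led by far with 454 to 609 CPM over the 8 libraries. It was followed by MMP24-AS1 with 81.5 to 252 CPM, FGD5-AS1 with 87.1 to 123 CPM, and TBX5-AS1 with 36.4 to 67.5 CPM, which lies beside the gene of a T-box factor of heart and lung development. PAX8-AS1, LINC00094, OIP5-AS1 and BAIAP2-AS1 completed this group, between 32.6 and 59.6 CPM. Per kilobase of exon, a scale on which levels of different genes can be compared, the median was 0.994 CPM for LINC genes and 1.19 for -AS1 genes. On that scale LRRC75A-AS1 stood at 139, MMP24-AS1 at 28.7, FGD5-AS1 at 21.2 and OSTN-AS1, whose annotated exons span 515 bases, at 19.6 CPM per kilobase.

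None of these 8 abundant RNAs passed the test on any day. LRRC75A-AS1 had 541 and 475 CPM at D0 and 564 and 555 CPM at D10 in experiments 1 and 2, a log2 fold change of 0.14 ± 0.24 (SE of the fit, n = 2 per group). MMP24-AS1 had 204 and 124 CPM at D0 and 156 and 81.5 CPM at D10, lower in both experiments, with a log2 fold change of -0.46 ± 0.43. The 2 experiments lay further apart in MMP24-AS1 than D10 lay from D0, and the groups overlapped.

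Against D0, 0 of the 296 noncoding RNAs passed an adjusted p of 0.05 at D4, D7 or D10 in edgeR's quasi-likelihood test by group with Benjamini-Hochberg adjustment over all 13798 genes. The same fit called 0%, 0% and 0.29% of all genes on these days. At an unadjusted p under 0.05 it held 7 members (2.36%) at D4, 9 (3.04%) at D7 and 15 (5.07%) at D10, against 2.96%, 4.34% and 7.94% of all genes. Their median log2 fold change was -0.06 at D4, -0.01 at D7 and 0.07 at D10, next to medians from -0.00041 to 0.0088 over all genes. At D10, 17 members were fitted at least 2-fold higher and 8 at least 2-fold lower, together 8.45% of members and 7.60% of all genes. The 3 comparisons share the D0 libraries. Without the D10 library of experiment 2 the D10 median was -0.07, and without that of experiment 1 it was 0.13. These fits by group set the remaining D10 library against the D0 libraries of both experiments. Within the experiments the median change from D0 to D10 was 0.03 in experiment 1 and 0.10 in experiment 2.

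With the experiment as a block, which the correlated deviations of same-numbered libraries call for, 0 members passed at D4, 2 at D7 and 6 at D10. This fit called 0.275%, 1.25% and 4.99% of all genes, and the 6 members are 2.03% of 296. The difference from all genes was not tested. All 6 were higher at D10. That fit called 2.54% of all genes as higher and 2.45% as lower, and 0 members passed as lower. They were OSTN-AS1, GABPB1-AS1, SOCS2-AS1, STXBP5-AS1, DLGAP1-AS1 and LINC00973, and OSTN-AS1 and LINC00973 were those that also passed at D7. DESeq2 by group called 0 members at D4, LINC00973 at D7, and OSTN-AS1, SOCS2-AS1 and STXBP5-AS1 at D10, among 0.348%, 0.823% and 2.59% of the genes it gave an adjusted p. Blocked fits that left out 1 library had 1 library in that group. How many members passed then varied with the library left out, as it did over all genes. The log2 fold changes of the 6 at D10 stayed positive in these fits, from 0.97 for DLGAP1-AS1 to 3.14 for OSTN-AS1.

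OSTN-AS1 had the lowest adjusted p of the 6. It lies antisense to OSTN, the gene of the secreted peptide osteocrin, at chr3:191213291-191234605 on the minus strand of GRCh38, and 23.5% of its exon bases overlap exons of OSTN. It had 4.94 CPM with D0 medium and 11.1, 14.6 and 19.6 CPM with D4, D7 and D10 medium in experiment 1. In experiment 2 the levels were 1.38, 8.05, 9.42 and 11.8 CPM. Every library with medium of induced cells was above both D0 libraries, and the level went up at each step in both experiments. The log2 fold change was 1.61 ± 0.57 at D4, 1.93 ± 0.57 at D7 and 2.32 ± 0.58 at D10 by group, with an adjusted p of 0.171 at D10 in edgeR. With the block edgeR gave 2.39 ± 0.31 at D10, with an adjusted p of 0.0041, and OSTN-AS1 passed in 8 of 8 such fits that left out 1 library. Its sense gene averaged 0.107 CPM and was too low to test.

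LINC00973, an intergenic RNA at chr3:98981058-98983096, was highest earlier. It went from 1.26 CPM at D0 to 5.35 at D4, 7.33 at D7 and 6.33 at D10 in experiment 1. In experiment 2 it went from 0.437 to 4.47, 3.797 and 1.66 CPM. No library at D4, D7 or D10 overlapped D0, but in experiment 2 the level at D10 was below those at D4 and D7. The log2 fold change was 2.54 ± 0.76 at D4, 2.72 ± 0.76 at D7 and 2.25 ± 0.76 at D10, and these at D4 and D7 were the largest of any member. Only 15 and 6 counts stood behind the D0 values. With the block its adjusted p in edgeR was 0.0339 at D7 and 0.0359 at D10, and in the fits that left out 1 library it passed in 4 of 8 at D7 and in 3 of 8 at D10, where the adjusted p reached 0.272.

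SOCS2-AS1 lies antisense to SOCS2, a feedback inhibitor of cytokine and growth hormone signalling, at chr12:93542463-93571768. It had 3.52, 6.67, 5.65 and 7.52 CPM at D0, D4, D7 and D10 in experiment 1, and 2.18, 4.85, 6.23 and 12.3 CPM in experiment 2. All 6 later libraries were above both D0 libraries, and the D10 library of experiment 2 was the highest. At D10 the log2 fold change was 1.80 ± 0.39, and the adjusted p of 0.121 in edgeR by group was the lowest of any member. With the block the adjusted p was 0.0231, and 6 of 8 fits that left out 1 library called it.

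STXBP5-AS1, antisense to the gene of the vesicle protein tomosyn at chr6:146841901-147204614, was alike in both experiments up to D4 and parted after it. It had 1.17, 4.27, 6.42 and 8.31 CPM in experiment 1 and 1.31, 3.88, 3.19 and 2.92 CPM in experiment 2. Every later library was above D0, while the D10 library of experiment 1 was the highest of all 8. The log2 fold change at D10 was 2.17 ± 0.59 by group, with an adjusted p of 0.0333 in edgeR with the block. It passed in 2 of 8 fits that left out 1 library.

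GABPB1-AS1 and DLGAP1-AS1 made up the rest. GABPB1-AS1 starts 449 bases from GABPB1, the gene of a subunit of an ETS-family transcription factor, at chr15:50354959-50372202. It had 3.94, 4.81, 9.01 and 10.7 CPM in experiment 1 and 11.6, 12.8, 15.0 and 27.8 CPM in experiment 2. It went up at each step in both, yet D10 in experiment 1 was below D0 in experiment 2, so that the groups overlapped. Its log2 fold change at D10 was 1.30 ± 0.68 with an adjusted p of 0.797 by group and 1.32 ± 0.23 with 0.0145 in the blocked edgeR fit. By group, where experiments are not paired, it was 0.46 without the D10 library of experiment 2 and 2.28 without that experiment's D0 library. It passed in 6 of 8 blocked fits that left out 1 library.

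DLGAP1-AS1, at chr18:3593732-3598352 within the gene of a scaffold protein of synapses, showed its higher level later than the others. It had 3.27, 3.03, 5.88 and 6.81 CPM over the 4 days in experiment 1 and 3.20, 2.68, 4.63 and 7.89 CPM in experiment 2. The D4 libraries were below D0 and the D7 and D10 libraries above it in both experiments. The log2 fold change was -0.18 ± 0.31 at D4 and 1.18 ± 0.31 at D10, and the adjusted p at D10 was 0.0358 with the block in edgeR and 0.106 in that fit without the D10 library of experiment 2. It passed in 1 of the 8 blocked fits without a library. DLGAP1-AS2, from the same strand of that locus, had 1.84 and 2.62 CPM at D0 and 3.25 and 9.70 at D10, with an adjusted p of 0.0528 in the blocked edgeR fit. DLGAP1 itself averaged 0.0785 CPM and was not tested.

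**Figure D1:**
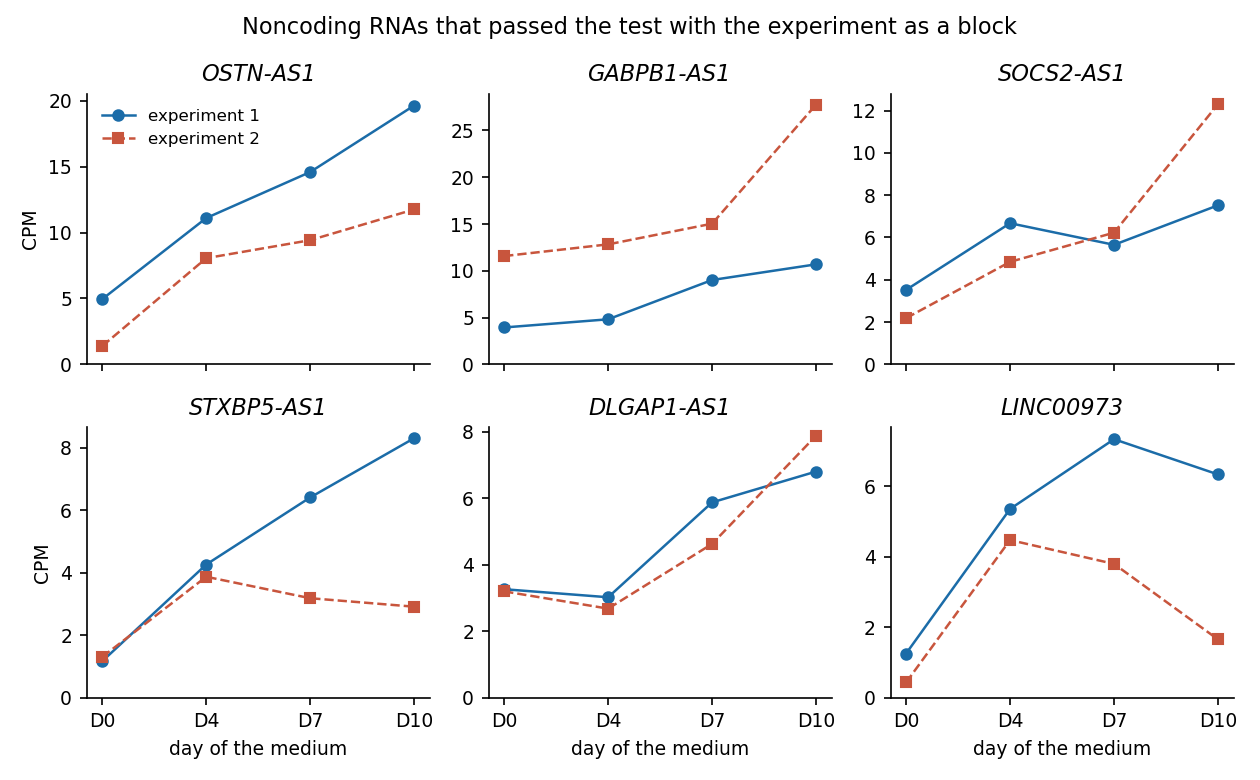
CPM (vertical axis) of the 6 noncoding RNAs that passed at D10 with the experiment as a block, by day of the medium (horizontal axis), with 1 point per library and a line per experiment. OSTN-AS1 runs from 4.94 to 19.6 CPM in experiment 1 and from 1.38 to 11.8 CPM in experiment 2, while LINC00973 and STXBP5-AS1 part between the experiments after D4.

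Besides OSTN-AS1 and GABPB1-AS1, TBX2-AS1 and DLGAP1-AS2 were higher at each step in both experiments, so 4 members (1.35%) did so, against 1.33% of all genes. No member was lower at each step in both, against 1.45% of all genes. TBX2-AS1, beside the gene of another T-box factor of lung mesenchyme, had 7.88, 10.0, 10.2 and 11.6 CPM in experiment 1 and 7.28, 7.46, 10.3 and 14.2 CPM in experiment 2. Its log2 fold change at D10 was 0.77 ± 0.27, with an adjusted p of 0.419 by group and 0.0974 with the block in edgeR.

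Several of the other RNAs fitted at least 2-fold higher at D10 were so through the D10 library of experiment 2. ZMIZ1-AS1 had 1.09 and 1.02 CPM at D0 and 1.504 and 5.21 at D10. ADAMTS9-AS2, near the gene of a secreted protease of the ADAMTS family, had 0.503 and 0.655 CPM at D0 and 0.713 and 2.92 at D10. ATP2B1-AS1 had 0.503 and 1.09 CPM at D0 and 1.27 and 3.63 at D10. In these 3 RNAs both D10 libraries were above D0, with log2 fold changes between 1.59 ± 0.73 and 1.66 ± 0.97 and adjusted p-values of at least 0.672 in edgeR by group. Without the D10 library of experiment 2 they were 0.51 for ZMIZ1-AS1, 0.29 for ADAMTS9-AS2 and 0.65 for ATP2B1-AS1. The mean level was 1.01 CPM for ADAMTS9-AS2 and 1.16 CPM for ATP2B1-AS1. Both met the threshold of 1 CPM only with the D10 library of experiment 2 counted in. Their membership and their rise thus rest on the same counts, also where these 2 RNAs are named below. SLC25A25-AS1, antisense to the gene of a mitochondrial carrier, had 0.921 and 2.91 CPM at D0 and 0.792 and 9.15 at D10, so that its D10 libraries lay on either side of both D0 libraries. The fitted log2 fold change of 1.36 ± 0.99 turned to -1.28 without the D10 library of experiment 2. That fit is unpaired and set 0.792 CPM against both D0 libraries. Within experiment 1 the level went only from 0.921 to 0.792 CPM.

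Across all members the D10 library of experiment 2 was the one with the highest CPM for 92 of 296 (31.1%), against 23.2% of all genes, and the lowest for 20.3%. The difference from all genes was not tested. The D4 library of experiment 2 was the highest for 3.38% of members and 9.77% of all genes.

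**Figure D2:**
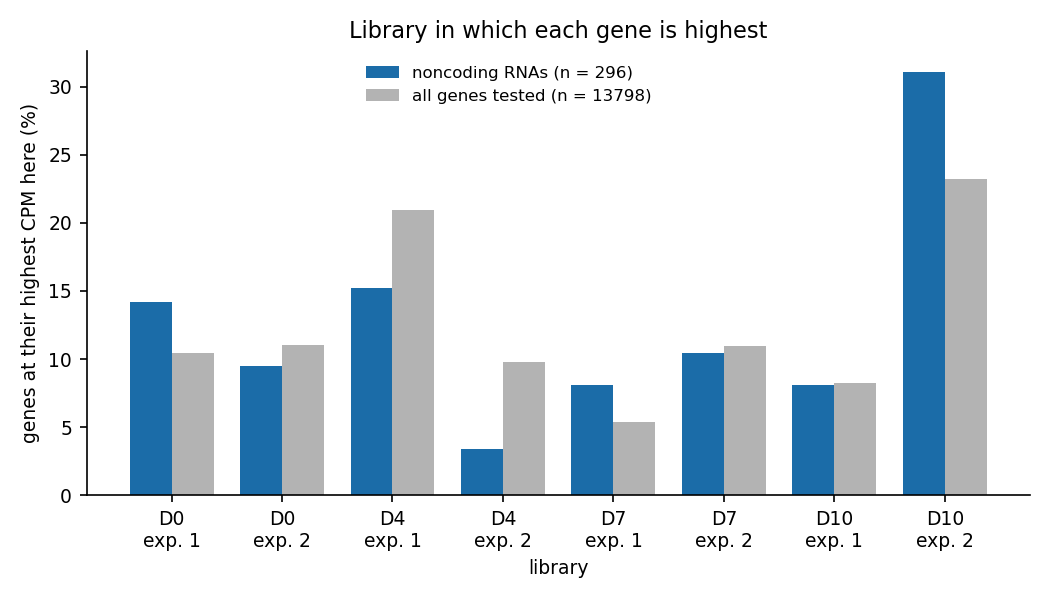
Share of genes (%, vertical axis) whose highest CPM was in each of the 8 libraries (horizontal axis), for the 296 noncoding RNAs and all 13798 genes tested. The D10 library of experiment 2 holds 31.1% of the noncoding RNAs and 23.2% of all genes.

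At the other end, 8 RNAs were fitted at least 2-fold lower at D10, each of them lower in both experiments, and none passed in either edgeR fit. SERTAD4-AS1 had 2.09 and 1.24 CPM at D0 and 0.713 and 0.316 at D10, a log2 fold change of -1.67 ± 0.55. PIK3CD-AS2, from the locus of a catalytic subunit of phosphoinositide kinase in white blood cells, had 4.61 and 2.91 CPM at D0 and 1.19 and 1.42 at D10, with all later libraries below both D0 libraries and a log2 fold change of -1.52 ± 0.45. Their adjusted p-values in edgeR were 0.366 and 0.284 by group and 0.117 and 0.0820 with the block. LINC00452 had 3.44 and 3.64 CPM at D0 and 1.90 and 0.868 at D10, where the D4 and D7 libraries, from 2.83 to 3.65 CPM, stayed near D0. LINC01111 had 6.03 and 3.57 CPM at D0 and 3.09 and 0.316 at D10, and its log2 fold change of -1.49 ± 0.84 was -0.63 without the D10 library of experiment 2. MELTF-AS1, ACTA2-AS1, NR2F2-AS1 and LINC01426 had log2 fold changes between -1.40 and -1.10, with adjusted p-values in edgeR of at least 0.537 by group and at least 0.163 with the block. At D10 the 8 RNAs had between 0.316 and 3.09 CPM, which leaves few counts to measure a fall.

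Other RNAs had their lowest fitted log2 fold change at D4 or D7 and not at D10. RBPMS-AS1 had 3.18 and 3.57 CPM at D0, 2.02 and 1.42 at D4, and 3.64 and 3.31 at D10, a log2 fold change of -0.97 ± 0.41 at D4 and 0.04 ± 0.39 at D10. SBF2-AS1 had 18.7 and 17.1 CPM at D0, 7.79 and 7.44 at D7, and 7.996 and 20.03 at D10. At D7 the log2 fold change was -1.23 ± 0.42 with an adjusted p of 0.852 in edgeR, and its D10 libraries lay on either side of D0. ZFHX2-AS1 had 0.503 and 2.11 CPM at D0 and 0.233 and 1.04 at D4, and 0.950 and 3.47 at D10. In RNF217-AS1, with 2.598 and 4.59 CPM at D0 and between 1.19 and 2.45 in all later libraries, the 2 groups did not overlap on any day, and its log2 fold change was -1.10 ± 0.48 at D4, -1.31 ± 0.49 at D7 and -0.98 ± 0.48 at D10. MSC-AS1, near the gene of the musculin transcription factor, had 11.0 and 19.4 CPM at D0, 7.06 and 8.43 at D4, and 10.6 and 22.8 at D10.

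Both D10 libraries lay above both D0 libraries for 56 members (18.9%) and below them for 47 (15.9%), where 15% and 16% of all genes did. At D4 these numbers were 26 (8.78%) above and 53 (17.9%) below, against 9.73% and 12.6% of all genes. At D7 they were 45 (15.2%) and 44 (14.9%), against 13.7% and 15.2%. The share below D0 at D4 was the one furthest from that of all genes, and no test of these differences was run.

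The 2 experiments differed widely in these RNAs. At D0 the log2 difference between experiments had an SD of 0.71 over the members and 0.62 over all genes. At least 2-fold differences were seen in 41 members, 35 of them higher in experiment 2. The same counts were not taken over all genes, so they do not set these RNAs apart. CCDC18-AS1 had 32 counts in experiment 1 and 182 in experiment 2 at D0, with 2.64 to 4.66 CPM in the libraries of experiment 1 and 10.4 to 18.7 in those of experiment 2. LINC00472 had 10 and 65 counts at D0, and 0.466 to 1.43 CPM against 4.34 to 5.07 over all days. Both kept the order of the experiments on all 4 days. From D0 to D10, 108 members (36.5%) were higher in both experiments, 81 (27.4%) lower in both and 107 (36.1%) differed in direction, against 31.1%, 32.3% and 36.6% of all genes. The differences from all genes were not tested. Their median change was 0.03 in experiment 1 and 0.10 in experiment 2 on the log2 scale.

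**Figure D3:**
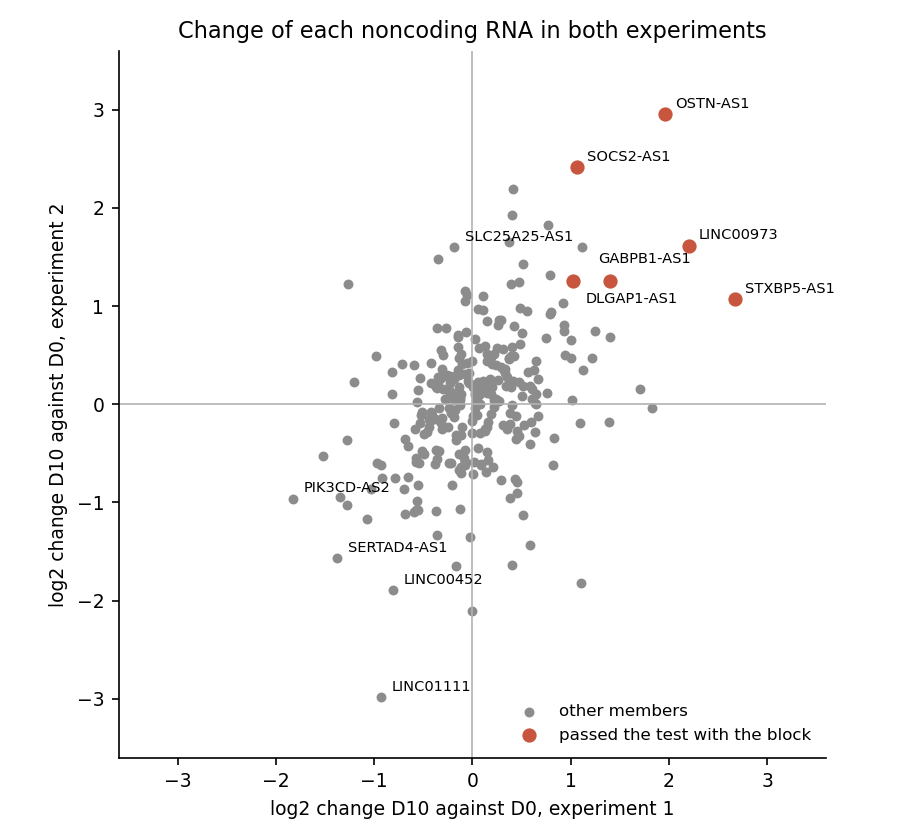
Log2 change of CPM from D0 to D10 in experiment 1 (horizontal axis) and experiment 2 (vertical axis), with 1 point for each of the 296 noncoding RNAs. The 6 that passed with the block lie to the upper right, OSTN-AS1 at 1.96 and 2.95, and SLC25A25-AS1 at -0.19 and 1.60 is among the 107 with opposite directions.

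For 173 of the 208 antisense and intronic members the gene named in the symbol was tested as well. The sense gene was too low to test for 29 members, among them OSTN-AS1 and OIP5-AS1, and for 6 it was not analysed here. In 85 pairs the starts lay within 1000 bases of each other, in 85 the genes overlapped with starts further apart, and the other 3 were 2 on the same strand and 1 without overlap. Per kilobase of exon the antisense RNA had a median of 17.1% of the level of its sense gene. It exceeded the sense gene in 30 pairs, by the widest margin in LRRC75A-AS1 with 139 against 0.332 CPM per kilobase and MMP24-AS1 with 28.4 against 0.469, here both from unscaled library totals.

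The log2 fold change of the antisense RNA had the sign of that of its sense gene in 104 pairs (60.1%) at D4, 99 (57.2%) at D7 and 107 (61.8%) at D10. Across the 173 pairs at D10 Pearson's r was 0.45 and Spearman's rho 0.37, which describes pairs measured in the same libraries and carries no test. Where the starts lay within 1000 bases, 57 of 85 pairs (67.1%) had the same sign and r was 0.50, against 47 of 85 (55.3%) and 0.42 where the genes overlapped with starts apart. Within experiment 1 the sign was shared by 98 pairs at D10 and within experiment 2 by 104, and 65 pairs shared it in both while 36 had opposite signs in both. The sources used here do not say whether counting used strand. Without it, reads where genes overlap on opposite strands cannot be assigned by strand, and such genes can share counts. The exons of 129 pairs overlapped those of an opposite-strand gene, and 44 had no such overlap. The sign at D10 was shared in 59.7% of the former with r of 0.43, and in 68.2% of the latter with r of 0.54.

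**Figure D4:**
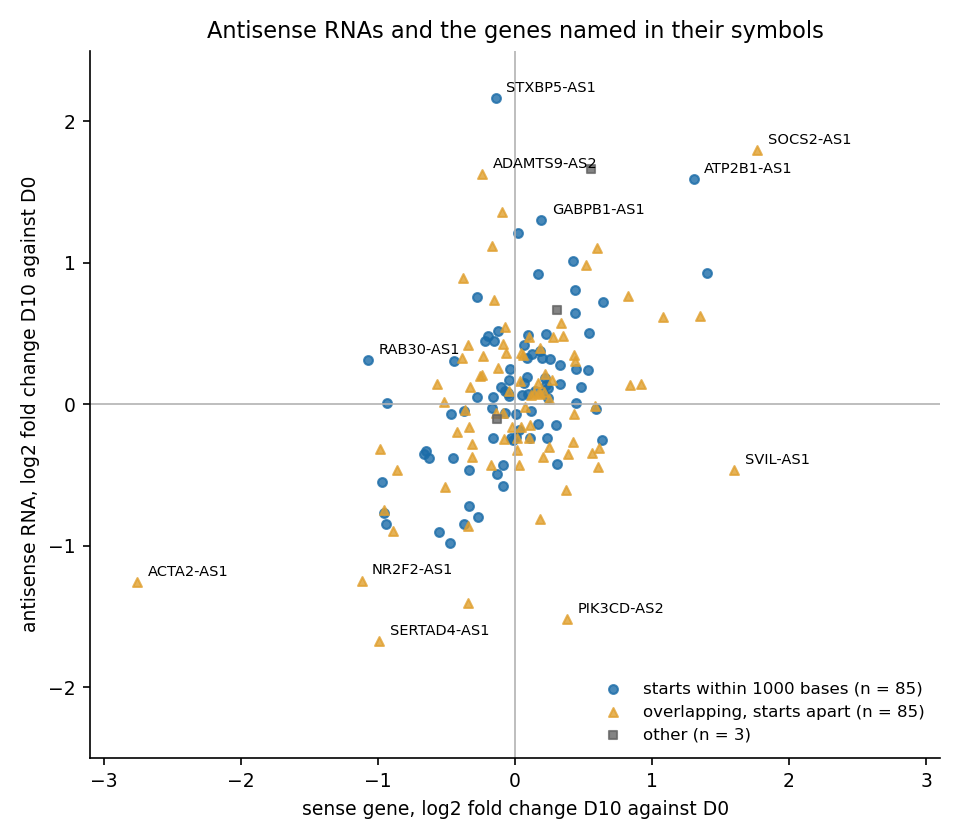
Log2 fold change at D10 of the sense gene (horizontal axis) and of its antisense RNA (vertical axis) for 173 pairs, marked by the layout of the pair. SOCS2-AS1 lies at 1.77 and 1.80 and ACTA2-AS1 at -2.76 and -1.26, while STXBP5-AS1 at -0.14 and 2.17 and SVIL-AS1 at 1.60 and -0.46 lie far from the diagonal.

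Of the 173 sense genes, ACTA2 passed at D10 by group, and 11 passed with the block. In 9 of these 11 the antisense RNA had the same sign, and none but SOCS2-AS1 passed itself. SOCS2 had 17.2, 41.8, 40.3 and 49.9 CPM over the 4 days in experiment 1 and 19.4, 50.2, 48.7 and 74.7 CPM in experiment 2. Its log2 fold change of 1.77 at D10 was next to 1.80 for SOCS2-AS1, and SOCS2 was the sense gene that passed with the block already at D4. The starts of this pair are 1954 bases apart, and 7.26% of the exon bases of SOCS2-AS1 overlap SOCS2.

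ACTA2, which encodes the smooth muscle alpha-actin that marks myofibroblasts, fell from 1347 and 1164 CPM at D0 to 225 and 145 at D10, with an adjusted p of 0.0399 in edgeR by group. ACTA2-AS1 had 2.26, 1.32, 0.763 and 0.792 CPM over the 4 days in experiment 1 and 2.11, 1.27, 1.75 and 1.03 CPM in experiment 2, and all later libraries were below D0. Its log2 fold change was -1.26 ± 0.50, 1.502 above the -2.76 of ACTA2, and its adjusted p was 0.537 by group and 0.163 with the block in edgeR. Per kilobase of exon its level was 0.216% of that of ACTA2, and 16.2% of its exon bases overlap exons of ACTA2, and whether reads of ACTA2 were counted on it was not tested.

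NR2F2, which encodes the nuclear receptor COUP-TFII, had 122 and 154 CPM at D0 and 67.4 and 59.7 at D10, and NR2F2-AS1 1.68 and 3.20 CPM at D0 and 0.713 and 1.34 at D10. The log2 fold changes were -1.12 and -1.25, and the exons of this pair do not overlap. RASSF8 and RASSF8-AS1 stood at 1.40 and 0.93, SPRY4, an inhibitor of receptor tyrosine kinase signalling, and SPRY4-AS1 at 1.35 and 0.62, and TBX2 and TBX2-AS1 at 0.82 and 0.77. PDCD4 and PDCD4-AS1 stood at -0.94 and -0.85, FAM212B and FAM212B-AS1 at -0.97 and -0.55, and SLC44A3 and SLC44A3-AS1 at -0.89 and -0.89. None of these antisense RNAs passed in either fit. ATP2B1, a calcium pump of the plasma membrane, and ATP2B1-AS1 were both highest in the D10 library of experiment 2, with 268 and 3.63 CPM.

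In other pairs the fitted changes of the antisense RNA and its sense gene lay apart. SVIL, which encodes an actin-binding protein of the cell cortex, had 127 and 106 CPM at D0, 239 and 313 at D4, and 500.1 and 205 at D10. SVIL-AS1 had 40.1 and 35.5 CPM at D0 and 34.8 and 19.96 at D10, for log2 fold changes of 1.60 and -0.46 with the starts 327379 bases apart. The value for SVIL-AS1 was -0.12 without the D10 library of experiment 2 and -0.90 without that of experiment 1. STXBP5 stayed between 29.9 and 51.2 CPM in all libraries, with a log2 fold change of -0.14 at D10 where STXBP5-AS1, whose start is 189 bases away, had 2.17. GABPB1 likewise stayed between 17.4 and 27.5 CPM, with 0.19 against 1.30 for GABPB1-AS1. PIK3CD had 26.0 and 22.4 CPM at D0 and 29.1 and 33.9 at D10, with 0.38 against -1.52 for PIK3CD-AS2. The other 3 of the 5 antisense RNAs furthest below their sense gene were MELTF-AS1, at -1.40 against -0.34, MZF1-AS1, at -0.44 against 0.61, and ZNF710-AS1, at -0.81 against 0.18. Those furthest above included ADAMTS9-AS2, at 1.63 against -0.24, SLC25A25-AS1, at 1.36 against -0.10, and RAB30-AS1, at 0.31 against -1.07. TRAM2, which acts in collagen synthesis, passed with the block at -0.94 while TRAM2-AS1, with its start 392 bases away, stood at 0.01. Of the 16 paired RNAs fitted at least 2-fold higher or lower at D10, 4 had a sense gene at least 2-fold the same way and 10 a sense gene within 1.5-fold of D0. The differences between antisense RNA and sense gene were not tested.

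**Figure D5:**
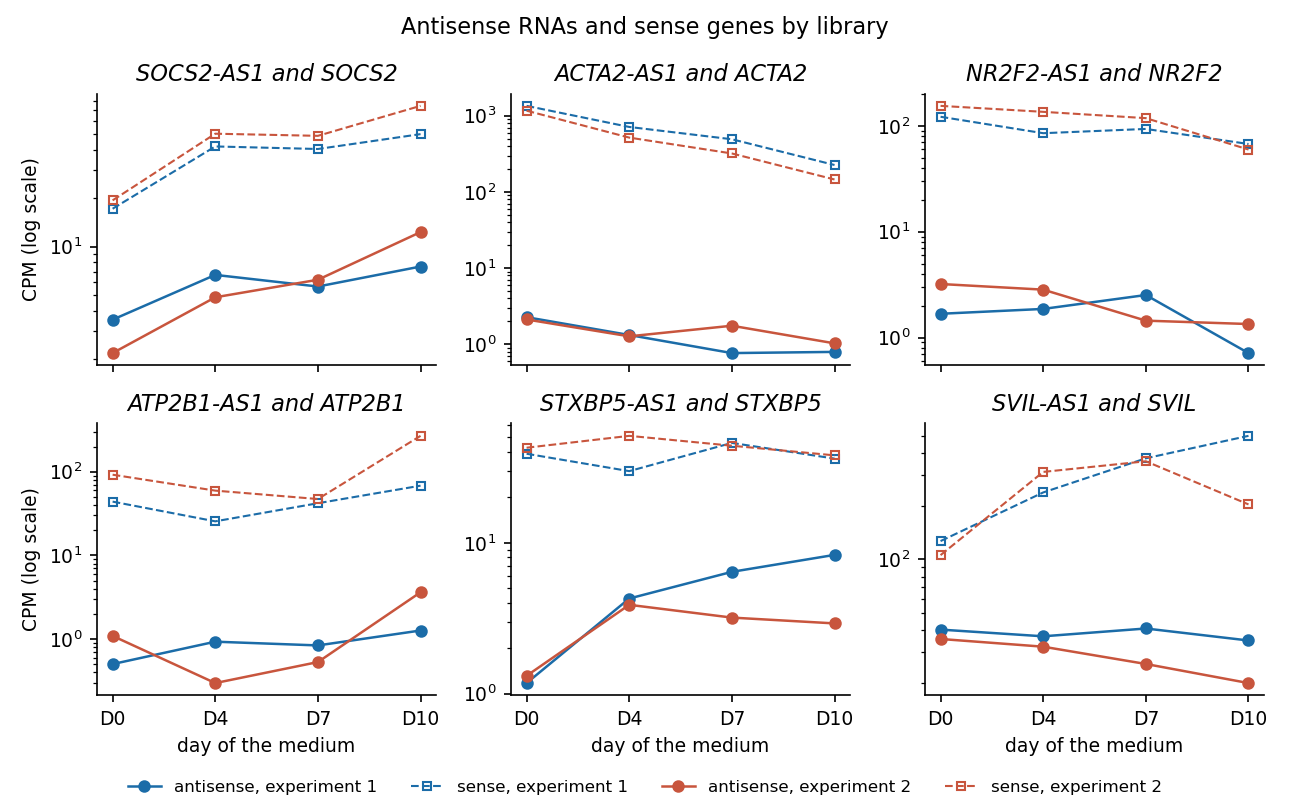
CPM on a log scale (vertical axis) of 6 antisense RNAs (filled circles, solid lines) and their sense genes (open squares, dashed lines) by day of the medium (horizontal axis), with 1 point per library. SOCS2-AS1 and NR2F2-AS1 end on the same side of D0 as their sense genes in both experiments, whereas STXBP5 stays between 29.9 and 51.2 CPM as STXBP5-AS1 goes up, and SVIL-AS1 ends below D0 where SVIL ends above it.

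Groups were set by name under functions of the sense gene, and not each sense gene has the function of its heading. They held between 6 and 14 RNAs, so a single call is a large share. With the block 0.275%, 1.25% and 4.99% of all genes passed at D4, D7 and D10, against 0.29% by group at D10. The shares of the groups were not tested. Of 14 RNAs antisense to HOX and developmental transcription factor genes, 0 passed on any day in either fit, with a median fitted change of -0.00 on the log2 scale at D10 and a range from -1.25 for NR2F2-AS1 to 0.77 for TBX2-AS1. Of 9 antisense to matrix, contractile, adhesion and TGF-beta genes, 0 passed, with a median of -0.06 and a range from -1.26 for ACTA2-AS1 to 1.63 for ADAMTS9-AS2. LOXL1-AS1, beside the gene of a lysyl oxidase that links elastin, had 22.3 and 18.6 CPM at D0 and 21.1 and 12.6 at D10. Of 6 listed under cytokine, NF-kappaB, interferon and antigen presentation genes, SOCS2-AS1 passed with the block and the median was -0.13. The others were PSMG3-AS1, TRAF3IP2-AS1, CD27-AS1, PDCD4-AS1 and ARRDC1-AS1, and not each of their sense genes is known for these functions. Of 8 listed under cell cycle, DNA damage and senescence genes, DLGAP1-AS1 passed with the block and the median was 0.25. DLGAP1 encodes a synaptic scaffold protein, and without DLGAP1-AS1 and DLGAP1-AS2 the other 6 held 0 calls and a median of 0.12. Over all genes tested the median at D10 was 0.0037.

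Of 43 other named long noncoding RNAs that the naming rule does not take, 1 passed at D10 by group, and with the block 1 passed as higher and 2 as lower. These are 2.33% and 6.98% of the 43, next to 0.29% and 4.99% of all genes in the same fits. The list was chosen by name with earlier results of these data known, so these shares cannot show an enrichment. The higher one, which was also the one called by group, is WTAPP1, a transcribed pseudogene with 0 counts in both D0 libraries, then 5, 12 and 26 in experiment 1 and 5, 13 and 52 in experiment 2, with an adjusted p of 0.0402 in edgeR by group. The lower pair is CYTOR, with 59.3 and 38.3 CPM at D0 and 39.3 and 22.8 at D10, and MIR4435-2HG, with 122 and 83.4 CPM at D0 and 79.6 and 44.6 at D10. These are known as closely similar copies, so reads can be split between them and their counts are uncertain. MALAT1 and NEAT1, abundant nuclear RNAs, and the imprinted MEG3 differed widely between the experiments, with MALAT1 at 39.1 and 399 CPM at D0. From D0 to D10 their log2 changes had opposite signs in the 2 experiments, 0.81 and -0.17 for MALAT1, 0.56 and -0.19 for NEAT1 and 0.37 and -0.20 for MEG3. None of the 3 passed in either fit, and the log2 fold change of MALAT1 was -0.05 ± 1.37 by group and 0.31 ± 0.25 with the block.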

How the data were processed

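RNA of 8 libraries, 2 in each of the groups D0, D4, D7 and D10, was analysed from the raw counts of reads per gene that the authors deposited. The submitters' processing notes name STAR 2.5, DESeq2 and the build GRCh38 (hg38), while the annotation and the strand setting of the counting are not given in the sources used here. A further 8 columns with normalized values were left aside. The first count column is headed DO, which was read as D0 of replicate 1. All 296 members were found by identifier in GENCODE 29, which gave positions, gene types and exon overlaps. The members, the lists and the rule for named genes were chosen with earlier results of these data known.

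Genes were filtered with edgeR's filterByExpr, scaled with TMM and fitted by group over all 8 libraries with edgeR 4.0.16 under R 4.3.3, using glmQLFit and then glmQLFTest. P-values were two-sided and were adjusted over all 13798 genes (Benjamini-Hochberg), with calls at 0.05. CPM are counts relative to the TMM-scaled library size, except that the member rule used unscaled totals. Changes within an experiment are differences of log2 CPM with a prior count of 2, and levels per kilobase were divided by the length of the merged exons. The SE of a log2 fold change is its size over the square root of the F statistic. The methods were tested on simulated counts.

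The replicate numbers in the labels were taken as the experiments. The methods of the study name 2 independent experiments, while the sample titles give only a replicate number. Across genes, libraries with the same number departed from the group mean together, with r from 0.418 to 0.722 in 6 of 6 pairs of groups. The libraries were therefore paired by number. Alternatives were DESeq2 1.42.0, its size factors in the edgeR fit, dropping the filter, asking for 10 counts or more in every library, fitting 2 groups alone, the replicate block, an adjusted p under 0.01, a mean of at least 2 CPM, and leaving out each library. The blocked fit without each library was added after the data were seen. With 2 libraries per group the p-values by group rest on the spread within 4 pairs of libraries. Those with the block rest on the spread that remains once the difference between the experiments is removed.

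Named are members called on any day, members called with the block at D10, the 8 largest rises and 8 largest falls at D10 and the 3 of each at D4 and D7 that went the same way in both experiments, the 8 most abundant, those nearest to the threshold, sense genes of named antisense RNAs, members of the lists where they are described, and the 5 pairs with the largest difference each way. CCDC18-AS1, LINC00472, LINC00484 and the pairs whose sense gene passed with the block were chosen after their values were seen, and 1 item is not reported here. Promoter windows are those of RefSeq on GRCh38.p14, matched by Ensembl identifier or symbol, and figures were drawn with matplotlib 3.10.9.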

Additional observations from a re-analysis of the deposited data

How the results depend on the processing

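At D4 no noncoding RNA passed in any fit of all 8 libraries. At D7, 1 passed with DESeq2, 2 with no filter on low counts and 2 with the replicate block, and at D10 these numbers were 3, 4 and 6. The other alternatives gave 0 on each day. Leaving out each library by group gave 0 on each day, and with the pairing by experiment as a block, chosen after seeing the data, it gave 0 to 5 at D4, 0 to 6 at D7 and 1 to 28 at D10. The blocked fit without the D10 library of either experiment held the highest counts at D4 and D7, and for D10 it was that without experiment 1. The cause was not tested.

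The median log2 fold change ran from -0.045 to 0.0067 at D7 and from -0.070 to 0.131 at D10 when a library was left out. The number of pairs with the same sign stayed between 93 and 107. Among single RNAs, 237 values under the other settings kept their sign and call, 18 passed the threshold and 1 turned, LINC00094 at D10, from -0.01 to 0.0014 with the compared groups only. Leaving out 1 library turned the sign in 12 of 360 values. These were ZFHX2-AS1 at D4, from -2.45 to 0.34, and at D10 LINC00094, from -0.43 to 0.33, BAIAP2-AS1, from -0.14 to 0.28, LINC01881, from -0.40 to 0.45, RNF139-AS1, from -0.58 to 0.17, SLC25A25-AS1, from -1.28 to 2.41, and RAB30-AS1, from -0.12 to 0.86.

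With a median level of 3.01 CPM most of these RNAs rest on few counts per library. How far depth limited the calls was not tested.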
